A study of Mus musculus with 75 samples.

Results

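The 41 genes described here are Myc and genes of ribosome biogenesis and polyamine synthesis that are commonly listed as targets of the MYC protein. They were taken by name from a list, each matched 1 gene ID among the 41388 mouse gene IDs of both count tables, and all 41 passed the filter on low counts in every fit. Beside Myc itself the list holds 3 genes of RNA polymerase I transcription, 3 of the box C/D and 3 of the box H/ACA small nucleolar ribonucleoproteins (snoRNPs), 6 nucleolar proteins, 10 genes of the small and 13 of the large ribosomal subunit's assembly, and 2 enzymes of polyamine synthesis. Another 116 genes of the same pathways served as a wider list.

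The study sorted 4 blood cell populations from 8-week-old mice with and without Kmt2c and sequenced their total RNA. The populations are labelled HSC (haematopoietic stem cell), HPC (haematopoietic progenitor cell), pGM (pre-granulocyte-monocyte) and GMP (granulocyte-monocyte progenitor). Kmt2c encodes a histone H3 lysine 4 methyltransferase. The knockout (ko) mice are Kmt2c f/f with Vav-Cre, the heterozygous (het) mice are Kmt2c f/+ with Vav-Cre, and the wild type (wt) mice carry no Vav-Cre label. The Vav promoter is active in blood cells and places Cre recombinase there. Since ko and het carry Cre and wt has no Cre label, the Kmt2c genotype and Cre cannot be told apart in ko against wt. Experiment 1 has 48 libraries of untreated mice, 4 for each of 3 genotypes in each population. Experiment 2 has 27 libraries, of ko and wt HSC and HPC after 3 days of interleukin 1 (IL-1), at 0.5 µg to a mouse, or of PBS as vehicle. There are 4 libraries of HSC ko IL1, HSC ko PBS and HSC wt PBS, and 3 of HSC wt IL1 and of each HPC group. The labels do not say whether replicates are separate mice, so the p-values speak of the spread among these libraries, part of which may be technical.

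Ribosomes are assembled in the nucleolus. RNA polymerase I transcribes the ribosomal RNA precursor, snoRNPs guide the chemical modification of its nucleotides, and assembly factors fold and cut the precursor into the small and large subunits. MYC is a transcription factor that pairs with MAX, binds the E-box CACGTG and activates many of these genes. It is known to be low in quiescent stem cells and high in dividing progenitors, and it also raises the polyamine enzymes ODC1 and SRM.

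A library of experiment 1 held 13.3 M to 20.8 M counts, and a library of experiment 2 held 18.6 M to 42.8 M. Summed markers followed the labels. The 7 HSC markers summed to 20.03 to 24.6 CPM (counts relative to library size, scaled by TMM) in wt GMP and 2263 to 2825 CPM in wt HSC, whereas the 8 granulocyte-monocyte markers summed to 136300 to 168800 CPM in wt GMP and 1007 to 2297 CPM in wt HSC. In experiment 2 the cell type entry of the HSC libraries reads HPCs, while title, source and description read HSC. The HSC markers summed to 511 to 826 CPM in wt PBS HPC, against 1761 to 2104 CPM in wt PBS HSC. Kmt2c, counted over the whole gene, was lower in ko than in wt in every population of experiment 1, by 1.68 ± 0.17 on the log2 scale in HSC (SE, edgeR adjusted p = 3.15e-05). Among the wt libraries, that labelled HSC wt IL1 replicate 1 had 13.99 CPM of Kmt2c, within the 12.7 to 16.8 CPM of the HSC ko IL1 libraries, against 41.6 and 42.6 CPM in the other HSC wt IL1 libraries. For the comparisons of HSC wt IL1 the counts and medians are given with and without it.

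Along the wt populations of experiment 1 the 41 genes were lowest in HSC and highest in GMP. Their mean log2 CPM was 6.18 ± 0.13 in HSC, 6.37 ± 0.07 in HPC, 6.94 ± 0.09 in pGM and 7.13 ± 0.11 in GMP (SD, n = 4 libraries each). The widest step lay between HPC and pGM, where the libraries of the 2 populations did not overlap. In bulk RNA, more RNA per cell of a kind and more cells of that kind cannot be told apart, which holds for each difference below.

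**Figure D1:**
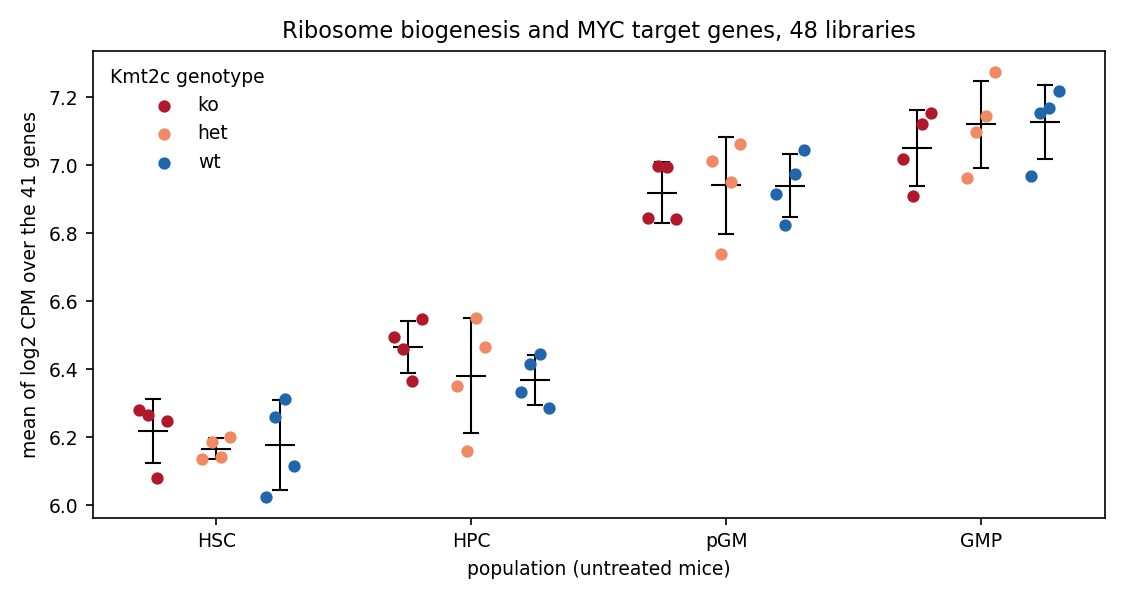
Mean log2 CPM over the 41 genes (y axis) in each library of untreated mice, by population (x axis) and Kmt2c genotype (ko, het, wt by colour); bars are mean ± SD of 4 libraries. The populations step upward from HSC near 6.2 to GMP near 7.1 while the genotypes of a population overlap.

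Of the 41 genes, 26 had wt means in the ascending order HSC, HPC, pGM, GMP, an order that 20.7% of all 12238 genes compared followed. In GMP 32 genes had their highest mean and in pGM the other 9, Myc among them, beside 35.8% and 13.5% of all genes. Of the 41, 33 were lowest in HSC and 8 in HPC, beside 35.3% and 14.4% of all genes. By edgeR's quasi-likelihood test, 23 of 41 genes were higher and 0 lower in pGM than in HPC, where 5.59% of all genes tested were called higher and 6.36% lower (median change of the 41 genes 0.52 on the log2 scale, all genes -0.004). All 41 changes in that step were positive. In HPC against HSC 7 genes were higher and 0 lower, beside 12.5% and 10.2% of all genes, so the share of members called lay near that of all genes (median 0.17, all genes -0.03). In GMP against pGM 8 genes were higher and 0 lower, beside 11.0% and 18% of all genes, again near it for higher levels (median 0.17, all genes -0.11). The libraries of the 2 populations did not overlap for 31 of the 41 genes in pGM against HPC, all higher in pGM, beside 12.8% of all genes. The counts moved with the filter on low counts and with single libraries. Without the filter 14 genes were called in pGM against HPC and 5 in GMP against pGM. In pGM against HPC 15 genes were called without HPC wt replicate 4. In GMP against pGM 3 were called without GMP wt replicate 3, 5 without GMP wt replicate 2, GMP wt replicate 4 or pGM wt replicate 1, and 4 without pGM wt replicate 2.

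**Figure D2:**
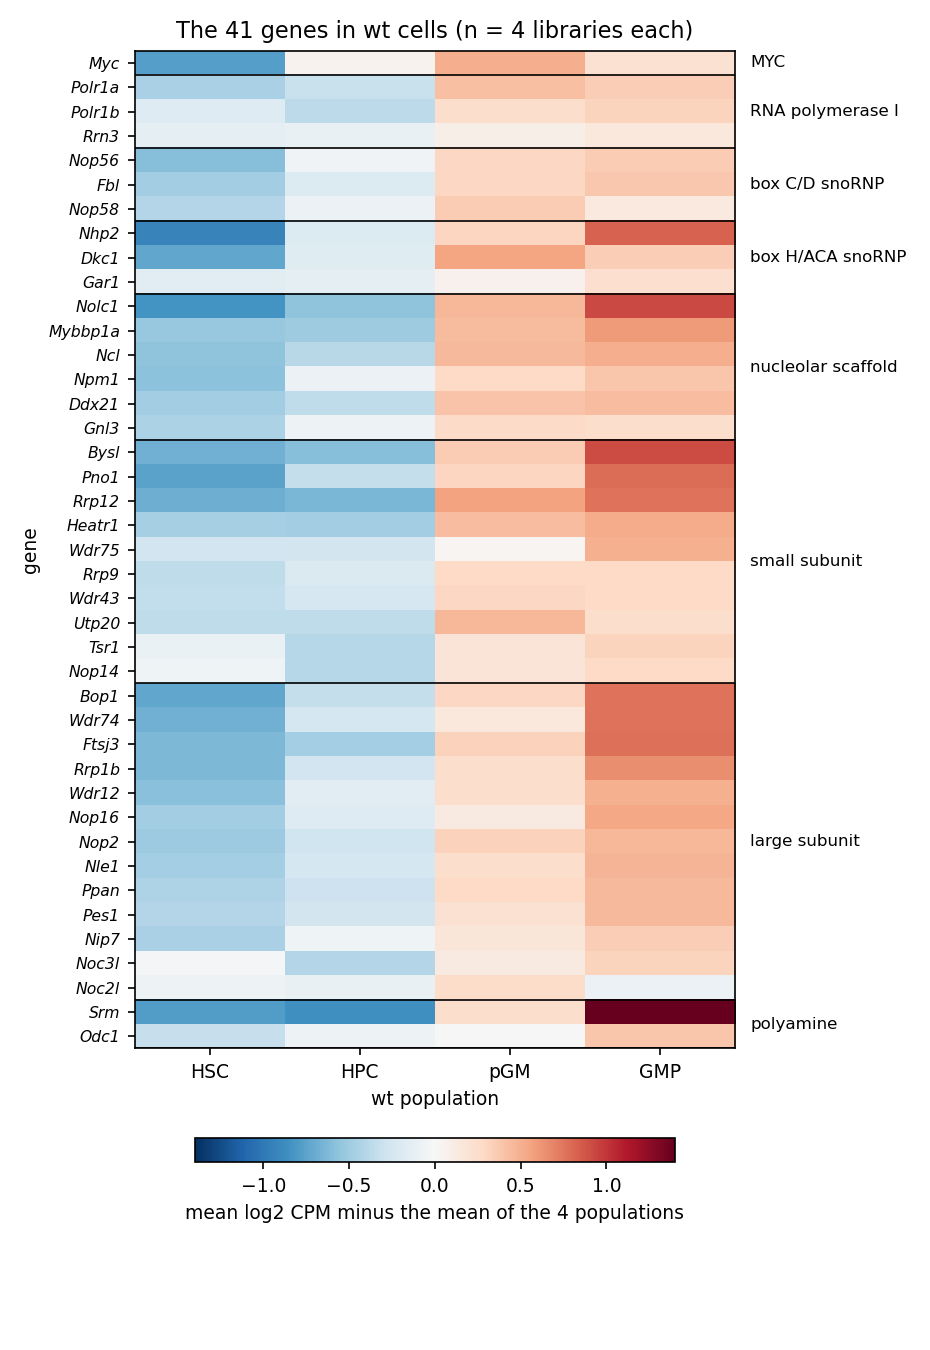
Mean log2 CPM of each of the 41 genes (rows, grouped by role) in the 4 wt populations (columns), as the difference from the gene's own mean over the 4 populations (colour, n = 4 libraries each). Most rows change from blue in HSC and HPC to red in pGM and GMP; Srm has the widest range and Noc2l is nearly flat between HSC and GMP.

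Myc (ENSMUSG00000022346, chromosome 15) had 324, 487, 542 and 404 CPM in the 4 wt HSC libraries, 615, 771, 906 and 799 CPM in HPC, 1174, 1009, 1077 and 971 CPM in pGM, and 624, 907, 878 and 1076 CPM in GMP. The HPC libraries all lay above the HSC libraries, the pGM libraries above the HPC libraries, and the GMP libraries overlapped both HPC and pGM. Myc was higher in HPC than in HSC by 0.81 ± 0.24 on the log2 scale (SE, edgeR adjusted p = 0.0108), and the call was lost without HSC wt replicate 1 (adjusted p = 0.0572). The change in pGM against HPC was 0.45 ± 0.24 (adjusted p = 0.234) and that in GMP against pGM -0.28 ± 0.24 (adjusted p = 0.41), neither of which passed. Levels were also divided by the joined length of all annotated exons, 2717 bases for Myc and 10188 for Ncl. By this measure the level of Myc in GMP, 321 ± 68.6 CPM per kilobase, was exceeded among the 41 genes by those of Nhp2, 532 ± 85.6, and Npm1, 468 ± 64.9 (SD, n = 4). In HSC Myc had 162 ± 35.3 CPM per kilobase, below Npm1 with 240 ± 24.8 and next to Nhp2 with 157 ± 19.9. The lowest level per kilobase in both populations was that of Utp20, at 3.08 ± 0.25 in GMP and 2.03 ± 0.16 in HSC. The joined length can exceed that of the transcript in these cells, so the ranks between genes depend on it.

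None of the 3 genes of RNA polymerase I was called at any step, although their median change in pGM against HPC, 0.60, was no smaller than that of the whole list. Polr1b, a large subunit of the enzyme, had 89.8 ± 20.8 CPM in wt HSC, 78.4 ± 14.7 in HPC, 119 ± 11.7 in pGM and 127 ± 29.8 in GMP (SD, n = 4). The pGM libraries (104 to 132 CPM) lay above the HPC libraries (59.7 to 94.7 CPM) without overlap. Polr1a, the largest subunit, passed there when HPC wt replicate 3 was left out (adjusted p = 0.0361). Rrn3, the initiation factor that brings the polymerase to the ribosomal DNA, differed by 0.19 in mean log2 CPM between pGM and HPC.

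Several snoRNP genes were already higher in HPC than in HSC in experiment 1. Nop56, a core protein of box C/D snoRNPs, had 456, 472, 422 and 377 CPM in wt HPC, and 236, 319, 384 and 258 CPM in HSC, with a single HSC library inside the HPC range. It was higher in HPC than in HSC by 0.53 ± 0.15 (log2, SE, adjusted p = 0.00662). Fbl, the methyltransferase of the same particles, had 10.8 ± 1.21 CPM in HSC, 13.3 ± 1.17 in HPC, 18.6 ± 1.78 in pGM and 19.9 ± 2.93 in GMP (SD, n = 4), and none of its steps passed. These levels of Fbl hold for experiment 1 only. The wt HSC libraries had 9.48 to 12.2 CPM there, against 88.7 to 120.5 CPM in wt PBS HSC of experiment 2. The median of Fbl over all libraries was 6.4 times as high in experiment 2, the largest such ratio on the list. Npm1 came next with 1.87. The reason for this difference was not tested. Nop58 was higher in pGM than in HPC by 0.44 ± 0.13 (adjusted p = 0.0231). Of the box H/ACA particles, which carry out pseudouridylation, Dkc1, the pseudouridine synthase, had 140 to 207 CPM in HSC, 224 to 286 in HPC, 396 to 492 in pGM and 314 to 427 in GMP. It rose in HPC by 0.55 ± 0.15 (adjusted p = 0.00517) and in pGM by 0.73 ± 0.15 (adjusted p = 0.000541), and the GMP libraries overlapped the pGM libraries. Nhp2, which binds the same RNAs, was called higher at all 3 steps, by 0.74 ± 0.17, 0.49 ± 0.16 and 0.53 ± 0.16, while Gar1 was called at none.

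Among the nucleolar proteins, Ncl (nucleolin) had 466 to 582 CPM in wt HSC, 424 to 782 in HPC, 905 to 1208 in pGM and 937 to 1182 in GMP. The HSC and HPC libraries overlapped, as did those of pGM and GMP, while each pGM library lay above each HPC library, a change of 0.81 ± 0.16 (adjusted p = 0.000387). Npm1 (nucleophosmin) was the gene of this group called at the earlier step, in HPC against HSC, by 0.50 ± 0.13 (adjusted p = 0.00427). Nolc1, which links snoRNPs to the nucleolus, had 192, 185, 227 and 287 CPM in wt pGM and 108, 102, 130 and 93.9 CPM in HPC, with no overlap. It was higher in pGM by 1.04 ± 0.24 (adjusted p = 0.00208). Mybbp1a, a nucleolar repressor protein that also binds RNA polymerase I, was higher in pGM by 0.94 ± 0.23 (adjusted p = 0.00341), and Ddx21, an RNA helicase, by 0.75 ± 0.17 (adjusted p = 0.00151).

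The assembly factors of the small subunit gave 8 calls of 10 in pGM against HPC, 0 in HPC against HSC and 3 in GMP against pGM. Of all genes, 5.59%, 12.5% and 11.0% were called higher in these comparisons. Rrp12, which takes part in the export of pre-ribosomes, had 87.8, 53.6, 74.7 and 73.3 CPM in wt pGM, against 20.9, 28.6, 39.2 and 39.5 CPM in HPC, with no overlap. Its change of 1.17 ± 0.33 (adjusted p = 0.0146) was the largest of the 41 genes at that step, and the call was lost without HPC wt replicate 1 or pGM wt replicate 1 (highest adjusted p 0.0698). Bysl, a factor of late pre-40S particles, was higher in pGM by 0.92 ± 0.18 (adjusted p = 0.000379) and again in GMP by 0.56 ± 0.18 (adjusted p = 0.016), a call lost without GMP wt replicate 2 or 4 or pGM wt replicate 4 (highest adjusted p 0.0586). Heatr1, a component of the early small subunit processome, was higher in pGM by 0.90 ± 0.20 (adjusted p = 0.00148). In GMP against pGM Pno1, which takes part in the last cleavage of the small subunit's RNA, was higher by 0.49 ± 0.17 (adjusted p = 0.0265), and Wdr75, of the early processome, by 0.46 ± 0.18 (adjusted p = 0.0457); these calls were lost under 4 and 7 of 12 alternatives. Tsr1 and Wdr75 were the 2 genes of this group not called in pGM against HPC.

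Of the 13 factors of the large subunit, 7 were called in pGM against HPC, 2 in HPC against HSC (Wdr12 and Wdr74) and 3 in GMP against pGM (Bop1, Nop16 and Wdr74). The shares of all genes called higher were 5.59%, 12.5% and 11.0%. Bop1, which forms the PeBoW complex with Pes1 and Wdr12, had 55.9 to 87.2 CPM in wt HSC, 84.7 to 102 in HPC, 122 to 158 in pGM and 145 to 221 in GMP. It was higher in pGM than in HPC by 0.63 ± 0.16 (adjusted p = 0.00594) and in GMP than in pGM by 0.48 ± 0.16 (adjusted p = 0.0186). The call in GMP was lost without GMP wt replicate 2, 3 or 4 or pGM wt replicate 2 (highest adjusted p 0.0794). Wdr74 was called at each of the 3 steps, by 0.42 ± 0.13, 0.38 ± 0.13 and 0.62 ± 0.13, and Nop16 in GMP by 0.42 ± 0.15 (adjusted p = 0.0288), a call lost under 6 of 12 alternatives. Noc2l had 34.95 to 44.5 CPM in GMP and 30.1 to 52.5 CPM in HSC, and was the gene of the list whose GMP mean log2 CPM did not exceed its HSC mean.

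Srm, spermidine synthase, had the widest range of the list. It had 41.2, 26.9, 35.7 and 35.4 CPM in wt HSC, 37.5, 31.2, 29.4 and 32.5 CPM in HPC, 61.7, 72.0, 70.5 and 77.2 CPM in pGM, and 163, 141, 177 and 149 CPM in GMP. HSC and HPC overlapped, and pGM and then GMP lay above all that came before. The change was 1.11 ± 0.19 in pGM against HPC (2.16-fold, adjusted p = 6.61e-05) and 1.16 ± 0.19 in GMP against pGM (2.24-fold, adjusted p = 5.12e-06). Odc1, ornithine decarboxylase, which supplies putrescine to the same pathway, had 18.8 ± 6.28 CPM in HSC, 21.7 ± 4.46 in HPC, 22.8 ± 3.46 in pGM and 30.1 ± 6.69 in GMP (SD, n = 4), and was called at no step.

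**Figure D3:**
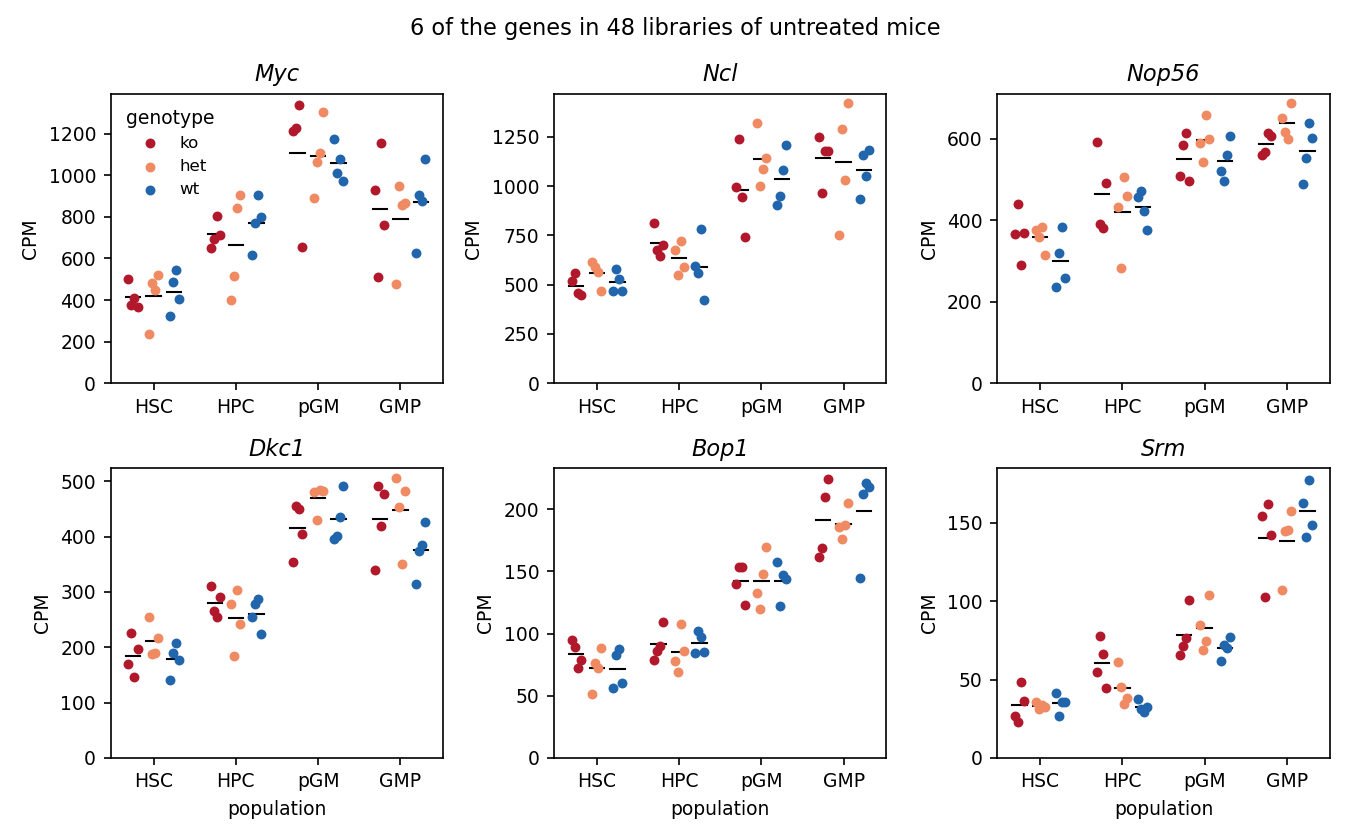
CPM (y axes, from 0) of Myc, Ncl, Nop56, Dkc1, Bop1 and Srm in the 48 libraries of untreated mice by population (x axes) and genotype (ko, het, wt by colour); short lines are means of 4 libraries. Myc peaks in pGM, Ncl and Dkc1 level off after pGM, and Bop1 and Srm go on to higher values in GMP.

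The wider list of 116 pathway genes gave 23 genes higher and 1 lower in HPC against HSC, 28 and 2 in pGM against HPC, and 22 and 6 in GMP against pGM. Of all genes tested, 12.5% were called higher and 10.2% lower at the 1st of these steps. The shares were 5.59% and 6.36% in pGM against HPC, and 11.0% and 18% in GMP against pGM. Mycn was lower at every step, by 1.92 ± 0.26 in HPC against HSC and 1.58 ± 0.27 in pGM against HPC on the log2 scale. Its counts in GMP were near 0, so no fold is given for that step. Mycl was called higher in HPC than in HSC and lower in GMP than in pGM, but it had no counts in HSC, few in HPC and almost none in GMP, and its fitted folds are not given. Other genes with wide changes were Tfrc, the transferrin receptor, higher in pGM by 1.87 ± 0.38 and in GMP by 1.89 ± 0.37, and Mlx, a partner of the MYC network's sugar-sensing factors, higher in GMP by 1.56 ± 0.17. In HPC the cell cycle kinase Cdk4 was higher by 0.89 ± 0.11 and Mxd3, a MAX partner, by 1.26 ± 0.30. In pGM Nat10, an RNA acetyltransferase of the small subunit pathway, was 2.14-fold higher (adjusted p = 0.00123) and Utp14a, of the small subunit processome, was higher by 0.98 ± 0.18. Of polyamine breakdown, Smox (spermine oxidase) was lower in pGM by 0.87 ± 0.25 and in GMP by 1.48 ± 0.26, and Sat1 (spermidine acetyltransferase) was 2.47-fold higher in GMP (adjusted p = 1.24e-05). Of 16 cell cycle genes 15 were higher in HPC than in HSC, 1 in pGM than in HPC and 2 in GMP than in pGM, beside 12.5%, 5.59% and 11.0% of all genes. Their summed levels were 1936 to 2507 CPM in HSC, 4098 to 4721 in HPC, 5384 to 6550 in pGM and 6238 to 8081 in GMP. Of the 8 granulocyte-monocyte markers, 7 were higher in pGM and 7 in GMP, beside 5.59% and 11.0% of all genes. The part of cell cycle or lineage in the change of the 41 genes was not tested.

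RefSeq promoter windows (GRCm38.p6, 250 bases before to 50 after the start) were found for 35 of the 41 genes; Myc, Fbl, Npm1, Rrp12, Bop1 and Srm had none in the table. The E-box CACGTG, a palindrome and thus the same on both strands, occurred in 9 of the 35 genes (25.7%), beside 8.09% of the 27025 gene symbols in the table. The 9 genes are Mybbp1a, Nle1, Nop2, Pes1, Pno1, Rrn3, Tsr1, Utp20 and Wdr43. In 7 of them the motif lay only within the 50 bases after the start. In Nop2 it began 60 bases before the start, and Rrn3 held it 215 and 48 bases before the start. These 2 promoters, chosen after the motif search, are shown because they are the ones whose E-boxes stand ahead of the start. Each is given 5′ to 3′, from the base farthest from the start to the base just before it, on the + strand of GRCm38.p6, with the E-box in capitals. Nop2 is at chr6:125131633-125131882 and Rrn3 at chr16:13780449-13780698.

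Nop2: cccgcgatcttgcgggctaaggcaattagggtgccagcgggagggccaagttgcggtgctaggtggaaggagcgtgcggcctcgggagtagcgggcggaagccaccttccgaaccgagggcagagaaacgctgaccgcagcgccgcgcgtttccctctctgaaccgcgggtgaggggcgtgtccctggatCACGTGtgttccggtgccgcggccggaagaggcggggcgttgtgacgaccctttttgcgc

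Rrn3: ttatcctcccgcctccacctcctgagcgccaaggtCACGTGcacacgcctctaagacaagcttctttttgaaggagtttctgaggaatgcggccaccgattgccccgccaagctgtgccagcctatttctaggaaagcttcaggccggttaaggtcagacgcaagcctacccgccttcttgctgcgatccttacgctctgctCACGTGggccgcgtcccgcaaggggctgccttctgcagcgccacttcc

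In pGM against HPC the median log2 change was 0.57 for the 9 genes with the motif, 5 of them called, and 0.50 for the 26 without it, 15 of them called. In HPC against HSC 0 of the 9 genes and 5 of the 26 were called. Of all genes, 5.59% were called higher in pGM against HPC and 12.5% in HPC against HSC. Neither Nop2 nor Rrn3 was called at any of the 3 steps with edgeR as reported.

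Between Kmt2c genotypes, the 41 genes gave a single call, Srm, in HPC. In ko against wt, 0 of 41 genes passed in HSC, pGM and GMP, where 1.78%, 1.94% and 0.555% of all genes were called in either direction, and 1 of 41 passed in HPC, where 1.1% of all genes were called. At an unadjusted p under 0.05 there were 1 in HSC, 3 in HPC, 0 in pGM and 0 in GMP. Backgrounds here and below are shares of all genes at an adjusted p under 0.05, and none is given for unadjusted p. The median log2 change of the 41 genes was 0.05 in HSC, 0.10 in HPC, 0.01 in pGM and -0.02 in GMP. Het against wt gave 0 of 41 calls in each population (background 0.00724%, 0.00753%, 0.0155% and 0.00828% in HSC, HPC, pGM and GMP; 0, 1, 6 and 1 genes at an unadjusted p under 0.05, of the 6 in pGM 5 lower), as did ko against het (background 0.326%, 0.196%, 0.564% and 0.0166%; 2, 0, 4 and 0 genes). DESeq2 also called 0 of 41 in each of these comparisons other than HPC ko against wt. The means over the 41 genes overlapped between genotypes in every population. They were 6.47 ± 0.08 in HPC ko, 6.38 ± 0.17 in HPC het and 6.37 ± 0.07 in HPC wt, and 6.22 ± 0.09 in HSC ko, 6.17 ± 0.03 in HSC het and 6.18 ± 0.13 in HSC wt (log2 CPM, SD, n = 4).

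The gene called in HPC was Srm, which had 54.6, 77.6, 66.6 and 44.5 CPM in ko, 61.1, 45.4, 34.1 and 38.0 CPM in het, and 37.5, 31.2, 29.4 and 32.5 CPM in wt HPC. Each ko library lay above each wt library, as for 2 of the 41 genes in this comparison, beside 3.02% of all genes, and the het libraries overlapped both groups. The change in ko against wt was 0.89 ± 0.21 (1.85-fold, SE, edgeR adjusted p = 0.0481; DESeq2 adjusted p = 0.00339). The call was lost with Y-linked expression as a covariate (change of 1.105, adjusted p = 0.0548) and when any of 7 of the 8 libraries was left out (up to 0.192). The 8 granulocyte-monocyte markers summed to 3646 to 5277 CPM in HPC ko, against 2531 to 3087 CPM in HPC wt, and 1 of them was called higher. Other marker sums also did not overlap. The 7 HSC markers had 603 to 748 CPM in HPC ko, against 811 to 1065 CPM in HPC wt, and the 5 megakaryocyte markers 21.97 to 38.8 CPM in HPC ko, against 55.3 to 84.1 CPM in HPC wt, with 1 gene of each called lower. The 6 stroma and endothelium markers had 61.3 to 68.5 CPM in HPC ko, against 79.9 to 128.8 CPM in HPC wt, with 1 called lower, and the 6 macrophage markers 34.4 to 80.9 CPM in HPC ko, against 82.01 to 143 CPM in HPC wt, with 0 called. The 16 cell cycle genes summed to 3570 to 5412 CPM in HPC ko, against 4098 to 4721 CPM in HPC wt, and the part of any of these lists in the result for Srm was not tested. In HSC it had 27.01, 22.8, 48.7 and 36.1 CPM in ko, against 41.2, 26.9, 35.7 and 35.4 CPM in wt. The difference between the ko effects in HPC and HSC was not called for any of the 41 genes (background 0.232%; 3 genes at an unadjusted p under 0.05; DESeq2 0), and Srm passed it only without HSC ko replicate 3 (1.18 ± 0.26, adjusted p = 0.0345). In experiment 2 Srm had 31.5, 21.4 and 26.0 CPM in HPC ko PBS, against 35.9, 16.8 and 23.8 CPM in HPC wt PBS, and the groups overlapped.

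Myc overlapped between genotypes in every population of experiment 1. In HPC it had 652, 695, 803 and 714 CPM in ko, 400, 514, 844 and 906 CPM in het, and 615, 771, 906 and 799 CPM in wt. Its ko against wt changes were -0.10 ± 0.22 in HSC, -0.12 ± 0.21 in HPC, 0.07 ± 0.17 in pGM and -0.05 ± 0.25 in GMP (log2, SE), and none passed. None of the 116 genes of the wider list was called in any genotype comparison of experiment 1.

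**Figure D4:**
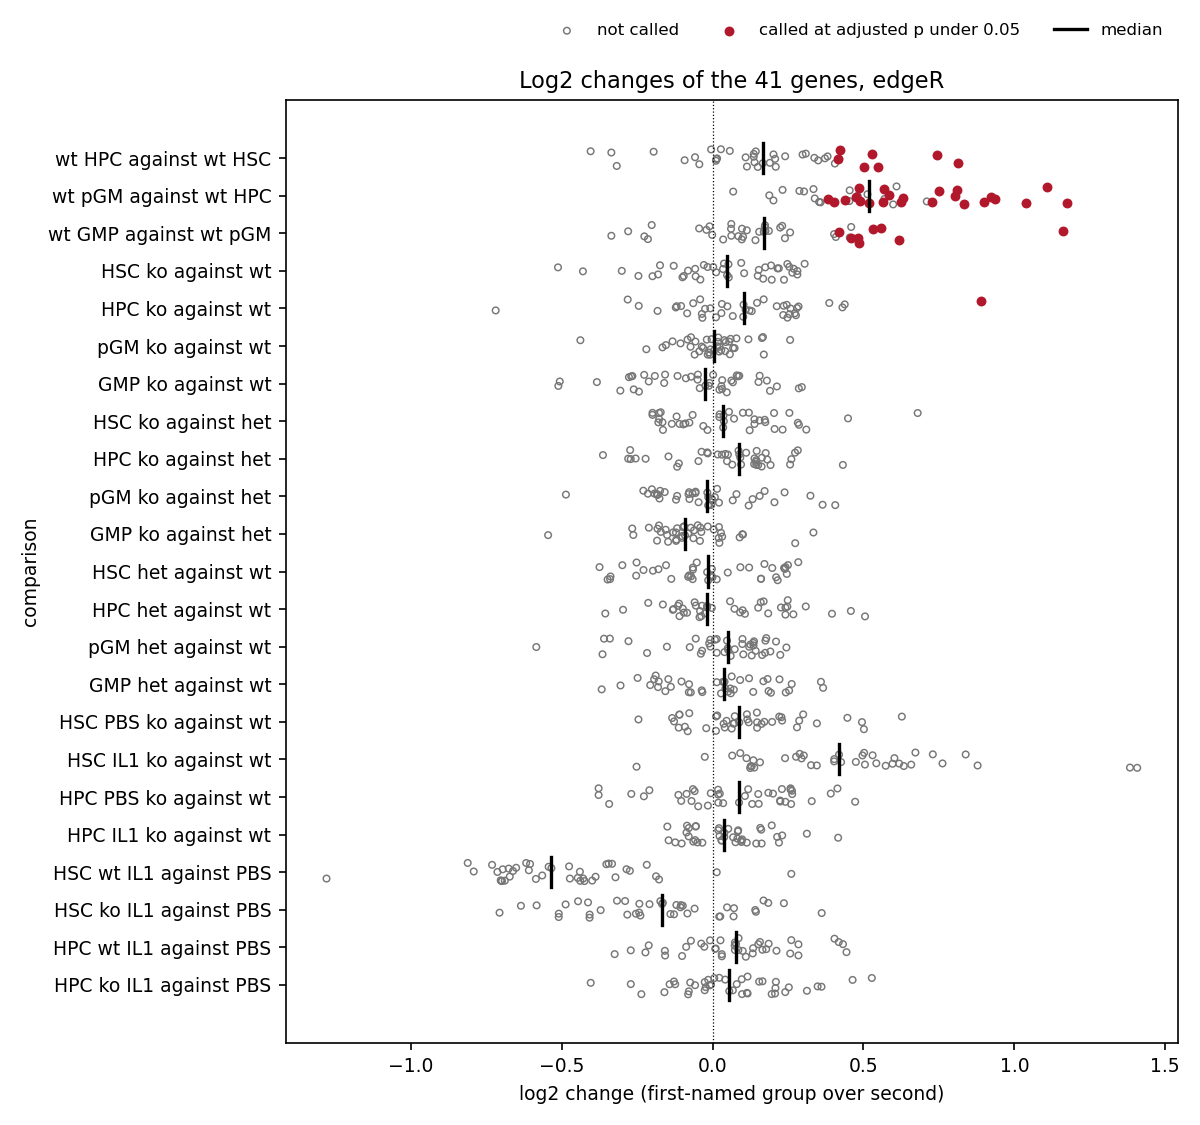
Log2 changes (x axis, group named first over group named second) of the 41 genes in each comparison (y axis); filled red points were called by edgeR at an adjusted p under 0.05, open points were not, and black lines are medians. Calls are confined to the 3 steps between wt populations, apart from Srm in HPC ko against wt; the median is lowest, -0.53, in HSC wt IL1 against PBS.

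After IL-1 the 41 genes had no calls in either population or genotype with edgeR, but replicate 1 of every IL1 group stood apart from its group. In HPC the mean log2 CPM over the 41 genes was 7.33, 6.23 and 6.22 in replicates 1, 2 and 3 of ko IL1, against 6.71, 6.53 and 6.68 in ko PBS. It was 7.36, 5.996 and 6.15 in wt IL1, against 6.74, 6.38 and 6.55 in wt PBS. In both genotypes replicate 1 lay above every PBS library and the other IL1 replicates below every PBS library. In HSC the values were 6.75, 6.23, 6.11 and 5.89 in ko IL1, against 6.36, 6.29, 6.57 and 6.47 in ko PBS. They were 6.23, 5.62 and 5.46 in wt IL1, where replicate 1 is the library with the low Kmt2c level, against 6.48, 6.38, 6.43 and 6.05 in wt PBS.

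**Figure D5:**
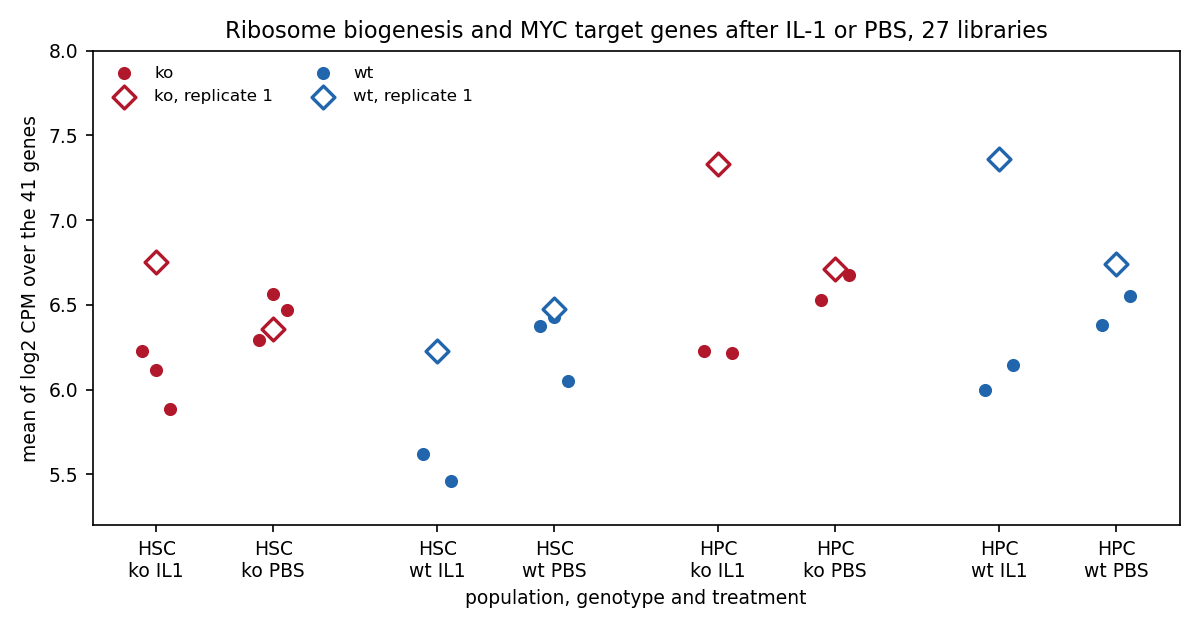
Mean log2 CPM over the 41 genes (y axis, not from 0) in each library of HSC and HPC after IL-1 or PBS (x axis), with ko in red and wt in blue; open diamonds are replicate 1 and filled circles the other replicates. Replicate 1 is the highest library of each IL1 group, at 7.33 and 7.36 in HPC; in the PBS groups it is also the highest library in 3 of 4, at 6.71 in HPC ko, 6.74 in HPC wt and 6.48 in HSC wt, closer to the other replicates.

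Replicate 1 had the highest level in its group for 40 of 41 genes in HPC ko IL1, 41 in HPC wt IL1, 40 in HSC ko IL1 and 40 in HSC wt IL1, beside 37.9%, 38.3%, 27.7% and 36.0% of all genes. It lay above the mean of the other replicates in all 4 IL1 groups for 39 of 41 genes, beside 18% of all genes, and in all 4 PBS groups for 4 of 41 genes, beside 8.5%. In HSC wt IL1, replicate 1 is the library with 13.99 CPM of Kmt2c, the level of ko libraries. In that group a difference by replicate and one by genotype cannot be told apart. Among the PBS groups, replicate 1 was the highest for 22 of 41 genes in HPC ko, 27 in HPC wt, 3 in HSC ko and 15 in HSC wt, beside 29.8%, 32.4%, 18.6% and 26.9% of all genes. Its median gap to the mean of the other replicates was 1.075 (log2) in HPC ko IL1, 1.24 in HPC wt IL1, 0.63 in HSC ko IL1 and 0.71 in HSC wt IL1, against 0.12 in HPC ko PBS, 0.34 in HPC wt PBS, -0.14 in HSC ko PBS and 0.16 in HSC wt PBS. The 2 exceptions in the IL1 groups were Npm1 and Gar1. Srm had the largest gap in HPC, with 66.0, 12.3 and 15.2 CPM in ko IL1 and 66.3, 11.1 and 10.9 CPM in wt IL1, against 31.5, 21.4 and 26.0 CPM in ko PBS and 35.9, 16.8 and 23.8 CPM in wt PBS. Myc had 738, 345 and 371 CPM in HPC ko IL1 and 850, 321 and 331 CPM in HPC wt IL1, against 576, 508 and 849 CPM in ko PBS and 570, 511 and 678 CPM in wt PBS. Nop56 followed with 823, 317 and 323 CPM in HPC ko IL1 and 847, 249 and 294 CPM in HPC wt IL1. Npm1 varied less, with 2965, 2625 and 3008 CPM in HPC ko IL1 and 3136, 2494 and 2729 CPM in HPC wt IL1. By role the median gap in HPC wt IL1 ran from 0.71 (log2) for RNA polymerase I to 1.86 for the polyamine enzymes.

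Other measures of these libraries moved in part with replicate 1. The proliferation marker Mki67 had 30.4, 96.6 and 83.4 CPM in HPC ko IL1 and 26.0, 54.2 and 65.4 CPM in HPC wt IL1, and was thus lowest in replicate 1, whereas the 16 cell cycle genes together had 5832, 5480 and 6426 CPM in ko IL1 and 5686, 4275 and 4948 CPM in wt IL1. In HSC these 16 genes had 3679, 2460, 2739 and 2054 CPM in ko IL1 and 3142, 1686 and 1623 CPM in wt IL1. Mki67 had 27.6, 31.25, 32.5 and 13.6 CPM in HSC ko IL1. In HSC wt IL1 it had 30.25, 16.5 and 18.4 CPM and was highest in replicate 1. Total counts of replicate 1 were 35.3 M in HPC ko IL1 and 34.5 M in HPC wt IL1, within the 31.1 M to 40.97 M of the other HPC IL1 libraries. The labels give no date or batch for replicate 1, and the part of these measures in its high levels was not tested.

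HPC IL1 against PBS gave 0 of 41 calls in ko and 0 of 41 in wt with all libraries (background 0.433% and 0.947%; 1 and 0 genes at an unadjusted p under 0.05; DESeq2 0 and 0), and the medians were 0.06 in ko and 0.08 in wt. Without replicate 1 of the IL1 groups, chosen after its values were seen, the medians were -0.40 in ko and -0.48 in wt, and 3 of 41 genes were called lower in wt, beside 0.599% of all genes, and 0 in ko. The 3 genes were Pes1 (-1.13 ± 0.17, adjusted p = 0.00255), Gnl3, which encodes nucleostemin (-1.21 ± 0.20, adjusted p = 0.0046), and Nop58 (-0.93 ± 0.17, adjusted p = 0.00983). Each of the 41 genes was highest in replicate 1 of HPC wt IL1, so leaving it out lowers them, and 2 libraries of that group remain. Adjusted p-values of the fits without replicate 1 thus depend on that choice and are not tests of IL-1 or genotype. Gnl3 had 43.2 and 47.4 CPM in replicates 2 and 3 of HPC wt IL1, against 125, 98.5 and 89.8 CPM in HPC wt PBS, and 48.7 and 48.8 CPM in those of HPC ko IL1, against 78.0, 69.9 and 94.3 CPM in HPC ko PBS. Pes1 had 61.7 and 72.2 CPM in those replicates of HPC wt IL1, against 164, 125 and 149 CPM in HPC wt PBS, and 144 and 146 CPM in those of HPC ko IL1, against 172, 155 and 163 CPM in HPC ko PBS. Pes1 was also the gene called in HPC IL1 ko against wt without replicate 1 of the IL1 groups (1.12 ± 0.19, adjusted p = 0.0206, beside 0.0611% of all genes called higher); with all libraries 0 of 41 genes were called there (background 0.201%; 0 at an unadjusted p under 0.05; DESeq2 0).

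In HSC, IL1 against PBS gave 0 of 41 calls in ko and 0 of 41 in wt with edgeR (background 0.212% and 0.2%; 3 and 12 genes at an unadjusted p under 0.05, all lower), and DESeq2 called 1, Ppan, lower in wt (adjusted p = 0.0482, beside 0.411% of all genes). The medians were -0.17 in ko and -0.53 in wt, beside -0.01 and 0.026 over all genes, and 39 of 41 changes in wt were below 0. Without replicate 1 of HSC wt IL1 the median in wt was -0.85, with 40 of 41 changes below 0, 29 genes at an unadjusted p under 0.05, all lower, and 0 calls (background 0.223%). The backgrounds in this paragraph are at an adjusted p, so the counts at an unadjusted p have no share of all genes beside them. Mitochondrial reads made up 2.11%, 4.90% and 4.48% of the counts in HSC wt IL1, against 0.748%, 1.38%, 1.48% and 4.50% in HSC wt PBS. The wt PBS library with 4.50%, replicate 4, also had the lowest mean over the 41 genes of its group, 6.05, and the part of this share in the result was not tested. Myc had 414, 221 and 189 CPM in HSC wt IL1, against 397, 486, 500 and 260 CPM in HSC wt PBS, and 457, 413, 415 and 221 CPM in HSC ko IL1, against 382, 308, 680 and 293 CPM in HSC ko PBS, and the groups overlapped in both genotypes. HSC IL1 ko against wt had a median of 0.42 with 0 of 41 calls (background 0.0%; 10 genes at an unadjusted p under 0.05, all higher; DESeq2 0), and a median of 0.74 once replicate 1 of HSC wt IL1 was left out, with 0 calls (background 0.932%) and 28 genes at an unadjusted p under 0.05, all higher. The IL-1 effect in ko minus that in wt gave 0 of 41 calls in HSC and in HPC (background 0.0% in each; 3 and 0 genes at an unadjusted p under 0.05; DESeq2 0), with a median in HSC of 0.32, and of 0.58 without replicate 1 of HSC wt IL1 (0 calls, background 0%, 11 genes at an unadjusted p under 0.05). Both fits without that library kept replicate 1 of HSC ko IL1, which was also high for the 41 genes. Leaving replicate 1 out on the wt side alone raised ko over wt. With other single libraries left out, the median was as low as 0.22 for HSC IL1 ko against wt and 0.11 for the difference of effects. The wt IL-1 effect in HPC minus that in HSC gave 0 of 41 as well (background 0.0228%; 3 genes; DESeq2 0), with a median of 0.57. Without replicate 1 of HSC wt IL1 the median was 0.87 (0 calls, background 0.0055%, 9 genes). That fit kept replicate 1 of HPC wt IL1, whose median gap to its group was 1.24, against 0.71 in HSC wt IL1. With another single library left out, the median was as low as 0.027.

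With PBS alone, ko against wt called 0 of 41 genes in HSC and 0 in HPC (background 0.798% and 0.257%; 1 and 0 genes at an unadjusted p under 0.05; DESeq2 0), with medians of 0.09 in each. The comparison of HPC with HSC was also made in wt PBS mice. The mean over the 41 genes was 6.56 ± 0.18 log2 CPM in HPC (SD, n = 3) and 6.33 ± 0.19 in HSC (SD, n = 4), and the groups overlapped. HPC against HSC gave 0 of 41 calls there (background 13.8%; 0 at an unadjusted p under 0.05; DESeq2 0), with a median of 0.20 and 36 of 41 changes above 0. Myc had 570, 511 and 678 CPM in wt PBS HPC, against 397, 486, 500 and 260 CPM in wt PBS HSC, a change of 0.51 ± 0.36 (adjusted p = 0.416), with each HPC library above each HSC library. On the wider list Mycn was lower in HPC there too (-1.33 ± 0.31, adjusted p = 0.00369) and Mycl, which had almost no counts in HSC, and Paox (1.69 ± 0.33) were among the 4 genes called higher. Of all genes, 13.8% were called there in either direction. After IL-1 Mycn was lower in HPC ko (-1.77 ± 0.30, adjusted p = 0.0155) and in HPC wt (-2.63 ± 0.31, adjusted p = 0.000622) with all libraries, and Paox, a polyamine oxidase, was higher in HPC wt (0.97 ± 0.19, adjusted p = 0.0193).

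Within groups the other 40 genes were set beside Myc by their deviations from the group means. In experiment 1 the deviations of 26 of 40 genes correlated positively with those of Myc and 14 negatively (Pearson's r -0.80 to 0.81, median 0.26, over 48 libraries). In experiment 2 they correlated positively for 39 of 40 genes and negatively for Npm1 (r -0.23 to 0.93, median 0.69, over 27 libraries). The libraries share their depth and scaling between genes, and the difference between the experiments was not tested. The 27 libraries include replicate 1 of the 4 IL1 groups. It lay above the mean of the other replicates in each for 39 of the 41 genes, Myc among them. The part of replicate 1 in these correlations was not tested. Polr1b and Odc1 lay toward opposite ends of the range of r in experiment 1. There the library lowest in Myc was also the lowest in Polr1b in 9 of 12 groups and the highest in 1, whereas it was the highest in Odc1 in 8 of 12 groups and the lowest in 1. The same library had the highest share of ribosomal protein gene counts in 10 of the 12 groups. In HPC het, for example, Myc had 400, 514, 844 and 906 CPM and Odc1 50.8, 39.6, 15.2 and 17.1 CPM in replicates 1 to 4. In experiment 2 the library lowest in Myc was the lowest in Polr1b in 8 of 8 groups, and the highest in Odc1 in 2 and the lowest in 2. These counts were made after the values were seen, carry no test and have no share of all genes beside them.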

How the data were processed

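Total RNA of sorted cells was sequenced in 75 libraries. Per the submitters' processing notes the authors used STAR 3.0.4 and featureCounts 1.4.5 of Subread; the sources used here give neither genome build nor strand setting. The values the authors deposited are raw read counts per gene, 1 table per experiment, with 0 columns left unassigned. The table of experiment 1 also held 3 non-mouse entries (9.6e-05% of reads), which were left out. Names and exon lengths came from GENCODE M21, which held 40254 of the 41388 gene IDs. Without a known strand setting, reads of members that overlap antisense genes (Bysl, Pes1, Gnl3 and others) or host snoRNAs (Nop56, Nop58, Ncl, Dkc1 and others) cannot be told apart from theirs, and genes with processed copies, such as Npm1, may share reads.

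Counts were tested with edgeR 4.0.16 in R 4.3.3 (robust quasi-likelihood F test, TMM, filterByExpr with min.count 10 and min.total.count 15). There was 1 fit per population and experiment and a joint fit per experiment for differences between populations, 28 comparisons in all. Calls were made at an adjusted p under 0.05 (Benjamini-Hochberg, over all genes tested). SE is the size of the log2 change divided by the square root of F. CPM use TMM within an experiment, and log2 CPM a prior count of 2. Overlap of groups and order of populations were counted over genes with a mean of at least 1 CPM. The replicate numbers paired HPC IL1 ko with wt (correlation of deviations across genes 0.158 to 0.37 in its 3 pairs), where the block changed no call, and no other of the comparisons checked. The alternatives were RLE factors, no filter, DESeq2 1.42.0, the replicate number as a block, the summed level of the Y-linked Uty, Kdm5d, Ddx3y and Eif2s3y as a covariate in experiment 1, and each library left out. Fits without replicate 1 of the IL1 groups, or of all groups of experiment 2, were added after seeing the data. The code was tested on simulated data.

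The members and lists were chosen with earlier results of these data known. Named are Myc in each comparison, up to 6 called members in each direction (all where 10 or fewer were called), 10 genes covering the roles, up to 3 called genes of the wider list in each direction, and Kmt2c; other genes were named after their values were seen.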

Additional observations from a re-analysis of the deposited data

Results flagged for a closer look

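Over the 10 genes followed by group and the mean over the 41 genes, 165 sets of 4 libraries were checked for a library far from the other 3, and 10 were found; chance alone sets apart about 1 in 20 such sets. In HSC ko PBS replicate 4 stood above the others for Ncl (1160 CPM, others 743, 757 and 747), Nop56 (623 CPM, others 359, 353 and 382) and Dkc1 (430 CPM, others 251, 270 and 262). In GMP ko replicate 2 had 1710 CPM of Npm1 (others 1130, 1210 and 1140) and 71.5 CPM of Polr1b (others 104, 108 and 104). In GMP wt replicate 3 had 1510 CPM of Npm1 (others 1150, 1140 and 1200) and 24.2 CPM of Fbl (others 18.8, 18.4 and 18.01), and replicate 1 had 145 CPM of Bop1 (others 212, 221 and 218). In pGM het replicate 2 had 430 CPM of Dkc1 (others 481, 485 and 482). The mean log2 CPM over the 41 genes in HSC ko was 6.08 in replicate 3 (others 6.28, 6.27 and 6.25).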

How the results depend on the processing

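The count of members called was within 1.5 times that reported under every alternative run except those named here. Without the filter on low counts 14 members were called in wt pGM against wt HPC and 5 in wt GMP against wt pGM. HPC ko against wt gave 0 calls with the Y-linked covariate, where the change of Srm was 1.105, against 0.89 without it. With the replicate number as a block, counts were 0 in HPC ko against wt (Srm adjusted p = 0.0606), 3 in HSC wt IL1 against PBS (Mybbp1a, Rrp12 and Wdr43, lower), 3 in HSC IL1 ko against wt (Ddx21, Mybbp1a and Rrp12, higher), 2 in wt PBS HPC against HSC (Npm1 and Pno1) and 2 in the wt IL1 effect in HPC minus that in HSC (Mybbp1a and Rrp12), and Nop2, Polr1a and Polr1b were also called in wt pGM against wt HPC (adjusted p = 0.0355, 0.0355 and 0.0359). Over all genes, same-numbered libraries of these comparisons had correlations of deviations below 0.1 in at least 1 pair of each, other than the difference of wt IL1 effects, where none was computed. The labels do not say what the numbers stand for, while replicate 1 of the IL1 groups deviated together for the members. The block moved Myc across 0 in HSC ko against het (0.028) and pGM ko against het (-0.010). DESeq2 called 1 member in HSC wt IL1 against PBS. RLE factors changed the median of all genes by at most -0.055 and no call count beyond that limit. Without replicate 1 of the IL1 groups, and without replicate 1 of all groups, 3 members were called in HPC wt IL1 against PBS and 1 in HPC IL1 ko against wt, where Myc became 0.14 under both. Without replicate 1 of the IL1 groups the medians of HPC IL1 against PBS were -0.40 in ko and -0.48 in wt, 1 member (Pno1) was called in wt PBS HPC against HSC, and Myc in the HPC IL1 effect in ko minus wt was 0.0057. The cause of these changes was not tested.

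Over the fits that left out 1 library, the count of members called ran 0 to 1 for HPC ko against wt, 15 to 21 for wt pGM against wt HPC, 3 to 8 for wt GMP against wt pGM, 0 to 1 for ko effect in HPC minus ko effect in HSC, 0 to 1 for HPC wt IL1 against PBS and 0 to 1 for HPC IL1 ko against wt. The median log2 change ran -0.48 to 0.32 for HPC wt IL1 against PBS, -0.41 to 0.25 for HPC ko IL1 against PBS, -0.50 to 0.52 for HPC IL1 effect in ko minus wt and 0.027 to 0.87 for wt IL1 effect in HPC minus wt IL1 effect in HSC. The log2 change of Myc, called in none of these comparisons, ran -0.23 to 0.013 for HSC ko against wt, -0.021 to 0.25 for pGM ko against wt, -0.22 to 0.15 for GMP ko against wt, -0.24 to 0.10 for HSC ko against het, -0.085 to 0.28 for HPC ko against het and -0.073 to 0.20 for pGM ko against het. It ran -0.082 to 0.29 for GMP ko against het, -0.20 to 0.13 for HSC het against wt, -0.039 to 0.13 for pGM het against wt, -0.25 to 0.041 for GMP het against wt, -0.14 to 0.10 for ko effect in HPC minus ko effect in HSC and -0.26 to 0.19 for HSC ko IL1 against PBS, and -0.85 to 0.021 for HPC wt IL1 against PBS, -0.32 to 0.15 for HSC PBS ko against wt, -0.12 to 0.28 for HPC PBS ko against wt, -0.49 to 0.58 for HPC IL1 ko against wt, -0.62 to 0.44 for HPC IL1 effect in ko minus wt and -0.25 to 0.79 for wt IL1 effect in HPC minus wt IL1 effect in HSC. Calls in wt GMP against wt pGM were also lost under 1 of 12 alternatives for Nhp2, and in wt HPC against wt HSC under 3 of 12 for Wdr74. Groups of 3 or 4 libraries limit what can be called, and p-values cover the spread among these libraries.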
